A study of Mus musculus with 14 samples.

Results

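Resident macrophage genes were followed in both organs of the reproductive tract, ovary and uterus, of ageing mice with and without injections of a stem cell secretome. The set was a list of 10 names, Cd68, Adgre1, Csf1r, Cd163, Mrc1, Lyve1, Folr2, Cd209f, Cd209g and Cx3cr1, taken by gene identifier out of the 21853 genes of the table. All 10 passed the filter on low values in both tissues. The mice were females of the C57BL/6J strain, 28 weeks old. The old control (OC) group of 3 mice was given saline, and the old treatment (OT) group of 4 mice was given AMSC-CM, the medium conditioned by mesenchymal stem cells of human amniotic membrane, mixed from 3 donors. It was injected into the tail vein at 1 µL per g of body weight, 6 times at intervals of 4 days. Before these injections both groups had received PMSG and, 48 h later, hCG, at 10 IU each, to synchronise their cycles, so the controls carry that treatment too. Ribosome-depleted, stranded total RNA was sequenced from an ovary and a uterus under each mouse name, which gave 14 libraries. Libraries of the same name were taken as 1 mouse, which rests on the names alone. The comparisons ask whether AMSC-CM changed the transcriptome of each organ.

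Macrophages settle in the ovary and the uterus as residents, where they clear dying cells, remodel the matrix and lie along vessels and nerves. Their survival depends on Csf1r, the receptor tyrosine kinase that binds the growth factors CSF1 and IL-34. Cd68 is a lysosomal glycoprotein, and Adgre1 encodes F4/80, an adhesion G-protein-coupled receptor; both are used as general macrophage markers. Cd163 is the scavenger receptor for haemoglobin bound to haptoglobin, Mrc1 is the mannose receptor CD206, Folr2 is folate receptor beta and Lyve1 is a hyaluronan receptor. These last 4 mark macrophages that lie along vessels, and Lyve1 and Mrc1 are also made by lymphatic endothelium. Cd209f and Cd209g belong to the mouse family of C-type lectins related to human DC-SIGN. Cx3cr1 is the receptor for fractalkine, carried by monocytes and by some resident macrophages.

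The promoters of 4 members are shown. Cd209f and Cd209g have nearly the same start region, and Cd163 and Cd68 give a member of each of the other kinds. RefSeq windows of GRCm38.p6, from 250 bases before to 50 bases after the annotated start, were found for 7 of the 10 genes. They are written 5′ to 3′ on the strand of the gene, and capitals mark the AP-1 word TGACTCA or its reverse complement. The windows are chr8:4105715-4106014 on the minus strand for Cd209f, chr8:4134486-4134785 on the plus strand for Cd209g, chr11:69666121-69666420 on the minus strand for Cd68 and chr6:124304401-124304700 on the plus strand for Cd163.
Cd209f: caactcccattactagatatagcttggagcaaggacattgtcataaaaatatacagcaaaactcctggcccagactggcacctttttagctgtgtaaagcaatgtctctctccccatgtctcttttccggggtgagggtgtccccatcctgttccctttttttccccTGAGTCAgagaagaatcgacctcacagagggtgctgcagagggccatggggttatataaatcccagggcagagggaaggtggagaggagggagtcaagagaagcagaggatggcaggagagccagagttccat
Cd209g: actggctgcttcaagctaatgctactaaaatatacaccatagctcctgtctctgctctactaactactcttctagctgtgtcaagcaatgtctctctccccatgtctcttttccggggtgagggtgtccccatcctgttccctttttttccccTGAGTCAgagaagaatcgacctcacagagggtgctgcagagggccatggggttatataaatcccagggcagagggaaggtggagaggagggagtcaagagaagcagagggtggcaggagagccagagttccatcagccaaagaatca
Cd68: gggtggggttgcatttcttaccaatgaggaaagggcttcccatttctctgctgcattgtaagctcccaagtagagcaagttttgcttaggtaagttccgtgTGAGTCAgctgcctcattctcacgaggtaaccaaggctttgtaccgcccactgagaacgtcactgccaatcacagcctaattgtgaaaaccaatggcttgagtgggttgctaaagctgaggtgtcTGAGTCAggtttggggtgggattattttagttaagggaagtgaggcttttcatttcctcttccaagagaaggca
Cd163: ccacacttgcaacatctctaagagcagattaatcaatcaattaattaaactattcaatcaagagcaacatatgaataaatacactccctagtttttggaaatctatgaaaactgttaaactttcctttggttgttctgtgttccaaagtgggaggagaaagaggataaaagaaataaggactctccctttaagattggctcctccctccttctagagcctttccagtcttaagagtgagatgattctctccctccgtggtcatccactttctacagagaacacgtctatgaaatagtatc
The Cd209f and Cd209g windows shared an unbroken stretch of 180 bases, and 242 of 255 aligned bases (94.9%) were identical. The AP-1 word lay in that stretch in both genes, 83 bases before the start of Cd209f and 97 bases before that of Cd209g. Cd68 held it at 2 places and Folr2 at 1 place, in 1 of its 2 windows. Thus 4 of the 8 windows of these 7 genes had it, against 5.2% of 32851 promoter windows. The matches of Cd209f and Cd209g lie in the same shared stretch, so they are not separate occurrences. Both strands were searched. The PU.1 word GAGGAAG was found in Mrc1 alone, against 13.6% of all windows. Its shorter form GAGGAA, which the longer word contains, was found in Mrc1 and Cd68, against 28.3%. The MAF word TGCTGAC was found in none of the 7 genes, against 4.67% of all windows. The Cd163 window held none of these words and had a GC content of 38%, under the lower quartile of all windows (45.7%). A match describes the letters of a window and is not a binding site.

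Expression was given as FPKM, fragments scaled by transcript length and library size, so levels can be set side by side between genes. Whether the values were also scaled between libraries is not stated. The depth of the libraries is unknown. The upper quartile over all genes ran from 15.3 to 15.8 FPKM over the 14 libraries and the summed FPKM from 374816 to 577494, with the highest sum in the uterus of OT1. Ovary markers, among them the hormone gene Inha, summed to 972 to 1402 FPKM in ovaries and to 7.13 to 20.9 in uteruses. Zp3, an egg coat gene, was listed at 0 in every uterus. The transcription factor gene Foxl2, also on that list, was not called between the tissues of OC mice (-0.84, adjusted p = 0.232 by limma). It was at 7.92 to 10.9 FPKM in OC uteruses and 15.2 to 22.6 in OC ovaries. Uterus markers such as Hoxa10 and Hoxa11 summed to 1585 to 2626 FPKM in uteruses and to 156 to 572 in ovaries. Myh11 and Des made up much of these sums, at 756 and 711 FPKM in the uterus of OC1. Hoxa10 was uneven among ovaries, from 0.572 FPKM in OT1 to 53.4 in OC2. Log2 fold changes are on the log2(FPKM + 0.1) scale from limma, and a gene was called where the estimate lay 1 or more from 0 with an unadjusted p no larger than 0.05, the cutoffs of the study. No gene had a Benjamini-Hochberg adjusted p under 0.05 by limma in either tissue between OT and OC, where the smallest were 0.477 (ovary) and 0.266 (uterus). The calls given here are therefore at an unadjusted threshold. The p-values set each estimate against the spread between mice of this study. The fits over all 14 libraries had no term for the mouse, so an ovary and a uterus of 1 name counted as separate. Their spread came from OC and OT libraries alike.

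In the uterus, Cd163 and Cd209g were called higher in OT than in OC mice, and all 10 members had estimates above 0. The median log2 fold change of the members was 0.59, beside 0.01 over all genes tested. Under TPM scaling the estimates of all 10 were also above 0, the lowest being 0.10 for Lyve1. The 2 members called stood beside 2.23% of 14151 genes called higher, and 0 members were called lower beside 0.664%. In the ovary, 9 of 10 estimates were above 0, with a median of 0.44 beside -0.01 for all genes, and 0 members were called in either direction by limma. All genes were called higher there in 0.368% and lower in 0.0832% of 14415 tests. Without the fold limit, 3 members passed the p threshold in ovaries (4.51% of all genes) and 3 in uteruses (8.2%). Groups of OC and OT did not overlap for 3 members in the ovary, all higher in OT, beside 2.78% of genes higher and 3.13% lower. In the uterus the groups overlapped for all 10, beside 6.46% of genes higher and 5.48% lower without overlap. These tissues are mixtures, so fewer or more macrophages and less or more RNA per macrophage cannot be told apart.

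**Figure D1:**
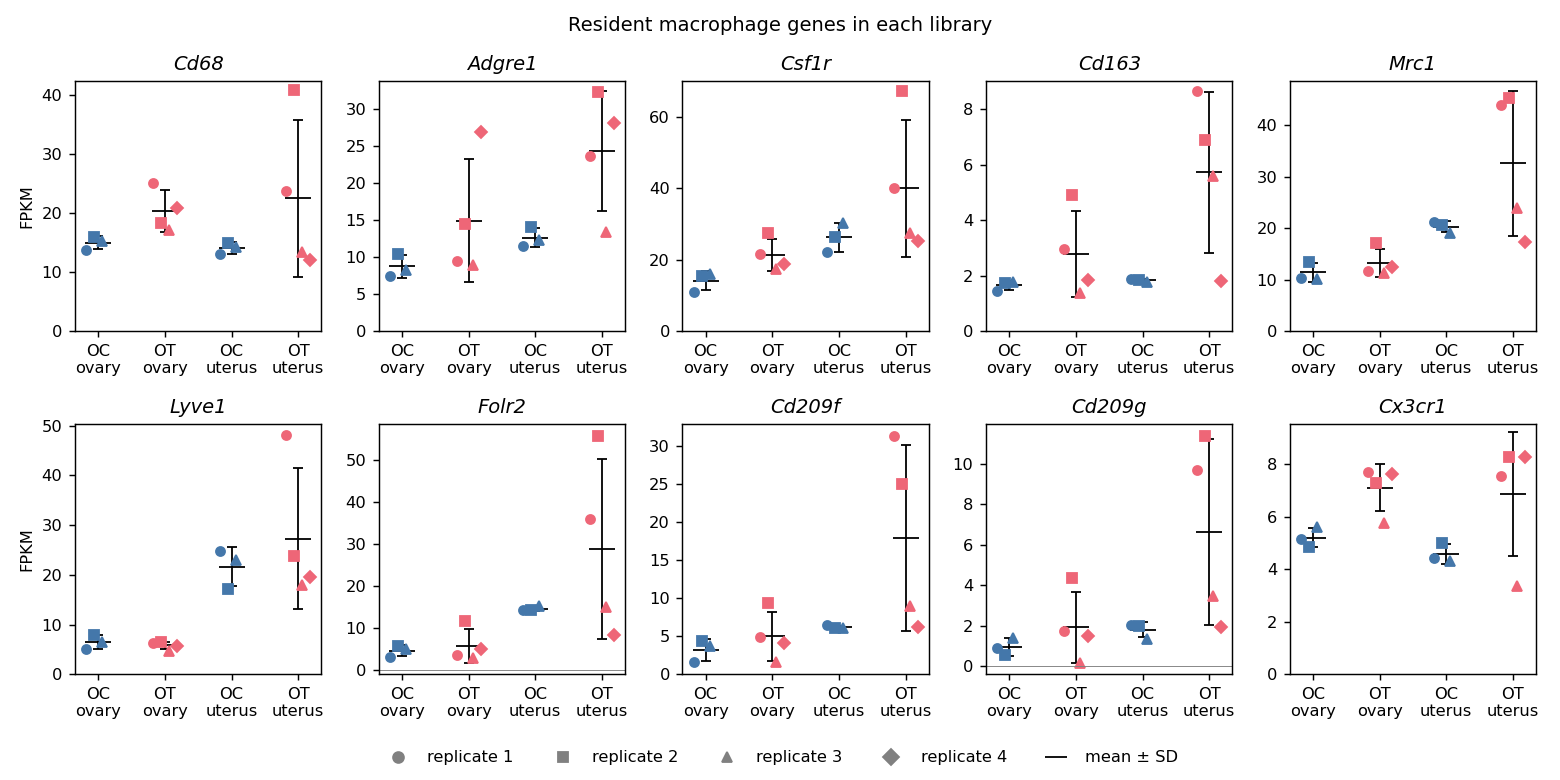
FPKM of each of the 10 members in every library (points, linear axis; the shape gives the replicate number), by group, with lines for the mean ± SD. In the uterus the OT points spread far above the tight OC points for Cd163, which ran from 1.81 to 8.64 FPKM against 1.79 to 1.88 in OC, and in the ovary all OT points of Cd68, Csf1r and Cx3cr1 lie above the OC points.

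Among the scavenger receptors, Cd163 (chromosome 6, 124304656 to 124330527 in GRCm38) was at 1.88, 1.83 and 1.79 FPKM in the uteruses of OC1, OC2 and OC3 and at 8.64, 6.88, 5.60 and 1.81 FPKM in those of OT1, OT2, OT3 and OT4. In 3 of 4 OT mice the uterus was thus well above every OC uterus, and that of OT4 lay inside the OC range. The log2 fold change was 1.39 (SE 0.48, 95% interval 0.28 to 2.5), a fold of 2.63, with an unadjusted p of 0.0202 and an adjusted p of 0.55 by limma. Without OT2 the estimate was 1.24 and the unadjusted p by limma 0.0527, so the call was lost. The ovaries held 1.46, 1.72 and 1.78 FPKM of Cd163 in OC mice and 2.97, 4.90, 1.38 and 1.86 in OT1 to OT4. OT1 and OT2 were the high ones again, OT3 was below all OC ovaries, and the estimate of 0.56 (SE 0.38) was not called by limma (unadjusted p = 0.18).

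Mrc1 (chromosome 2, 14229392 to 14332057) was at 21.2, 20.7 and 19.0 FPKM in OC uteruses and at 43.9, 45.2, 23.9 and 17.3 FPKM in OT1 to OT4. OT1 and OT2 had more than any OC uterus by a wide margin, OT3 a little more and OT4 less, and the estimate of 0.57 (SE 0.33) had an unadjusted p of 0.127 by limma. Ovarian Mrc1 was at 10.4, 13.5 and 10.2 FPKM in OC and 11.7, 17.2, 11.3 and 12.5 FPKM in OT mice. Only OT2 exceeded the OC range, and the estimate was 0.20 (SE 0.16, unadjusted p = 0.258 by limma).

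Folr2 (chromosome 7, 101839988 to 101857194) had the widest spread of the members among OT uteruses. It was at 14.2, 14.2 and 15.2 FPKM in OC uteruses and at 35.9, 55.7, 14.9 and 8.33 FPKM in OT1 to OT4, a coefficient of variation of 74.9% against 3.92% in OC. OT1 and OT2 were above all OC uteruses, OT3 was within their range and OT4 was below them, and the log2 fold change was 0.62 (SE 0.58, unadjusted p = 0.318 by limma). In ovaries Folr2 was at 2.94, 5.55 and 4.97 FPKM in OC and 3.46, 11.6, 2.65 and 4.90 FPKM in OT mice. OT2 alone was high, and the estimate was 0.14 (SE 0.46); it was -0.28 without OT2 and -0.13 without OC1.

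Lyve1 (chromosome 7, 110850607 to 110863239) had the lowest estimate of the 10 members in both tissues. OC uteruses held 24.7, 17.2 and 22.9 FPKM and OT uteruses 48.1, 23.7, 18.0 and 19.6 FPKM. OT1 alone was high, and the estimate of 0.24 (SE 0.33, unadjusted p = 0.495 by limma) became -0.07 without it. OC ovaries held 5.11, 7.84 and 6.46 FPKM and OT ovaries 6.22, 6.52, 4.71 and 5.78 FPKM. The ovarian estimate was -0.14 (SE 0.17, unadjusted p = 0.433 by limma), and it was 0.01 without OC2. The 6 lymphatic endothelium markers, a cell type that also makes Lyve1, summed to 404 FPKM in the uterus of OT1, 169 to 255 in the other OT uteruses and 169 to 226 in OC uteruses, and none of the 6 was called by limma in either tissue. Their part in the Lyve1 values was not tested.

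The lectin genes Cd209f and Cd209g lie on chromosome 8, at 4102787 to 4105835 and 4134098 to 4137707, 28262 bases apart and on opposite strands. Cd209g was at 2.06, 2.00 and 1.36 FPKM in OC uteruses and at 9.69, 11.4, 3.49 and 1.96 FPKM in OT1 to OT4. OT1, OT2 and OT3 were above all OC uteruses and OT4 was within their range. The log2 fold change of 1.52 (SE 0.59, 95% interval 0.16 to 2.87), a fold of 2.86, had an unadjusted p of 0.0325 and an adjusted p of 0.573 by limma. The call was lost, at unadjusted p-values by limma of 0.0553, 0.0591 and 0.0954, without OC1, OC2 or OC3, and at 0.0728 and 0.0768 without OT1 or OT2. It was also lost, at 0.0808, when all 14 libraries were fitted together. The study listed Cd209g as higher in OT mice in both the ovary and the uterus of these samples, so its direction here is not independent evidence.

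Cd209f was at 6.44, 6.15 and 6.04 FPKM in OC uteruses and at 31.4, 25.0, 9.02 and 6.19 FPKM in OT1 to OT4, the same order of high and low mice apart from OT1 and OT2 changing places. Its log2 fold change of 1.21 (SE 0.54, 95% interval -0.03 to 2.45) was past the fold limit but had an unadjusted p of 0.0538 by limma and was not called. In ovaries Cd209f was at 1.63, 4.35 and 3.68 FPKM in OC and 4.93, 9.33, 1.61 and 4.13 FPKM in OT mice, and Cd209g at 0.919, 0.535 and 1.39 and at 1.74, 4.34, 0.158 and 1.5 FPKM. OT2 was highest and OT3 lowest for both genes in the ovary. The ovarian estimates were 0.49 (SE 0.55) for Cd209f and 0.46 (SE 0.84) for Cd209g. Neither was called by limma, although the study, by another test, listed Cd209g as higher in the ovary. Leaving out OT3 gave 1.25 for ovarian Cd209g, with an unadjusted p of 0.0303 by limma, and leaving out OT2 gave -0.11. The transcripts of the pair shared 533 words of 75 bases, 23.5% of those of Cd209f and 13.2% of those of Cd209g, and shared 0 with Cd209a to Cd209e. Reads from shared stretches could be split between the pair in counting, so their separate values are uncertain.

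Of the general markers, Csf1r, on the plus strand of chromosome 18, was at 11.1, 15.5 and 16.0 FPKM in OC ovaries and 21.6, 27.4, 17.5 and 18.8 FPKM in OT ovaries. Every OT ovary was above every OC ovary, and the log2 fold change was 0.58 (SE 0.18, 95% interval 0.17 to 0.99, unadjusted p = 0.011, adjusted p = 0.997 by limma), under the fold limit. In uteruses it was at 22.2, 26.4 and 30.2 FPKM in OC and 40.1, 67.3, 27.4 and 25.4 FPKM in OT mice. OT1 and OT2 were above the OC range and the other two within it, with an estimate of 0.50 (SE 0.33, unadjusted p = 0.161 by limma).

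Cd68 (chromosome 11, 69664213 to 69666153) was at 13.8, 16.0 and 15.2 FPKM in OC ovaries and 25.1, 18.3, 17.1 and 20.9 FPKM in OT ovaries. The groups did not overlap, with an estimate of 0.43 (SE 0.13, 95% interval 0.13 to 0.73, unadjusted p = 0.0107 by limma). Its uterine values were 13, 15 and 14.3 FPKM in OC and 23.8, 40.8, 13.4 and 12.1 FPKM in OT mice. OT1 and OT2 were high, OT3 was within the OC range and OT4 was below it, and the estimate was 0.50 (SE 0.39, unadjusted p = 0.242 by limma).

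Adgre1 (chromosome 17, 57358691 to 57483527) was at 11.5, 14 and 12.3 FPKM in OC uteruses and at 23.6, 32.3, 13.4 and 28.1 FPKM in OT1 to OT4, so OT4 was high beside OT1 and OT2 and OT3 was in the OC range. The estimate was 0.87 (SE 0.28, 95% interval 0.22 to 1.53), a fold of 1.83, with an unadjusted p of 0.0153 and an adjusted p of 0.55 by limma, under the fold limit. Without OT3 it was 1.13, past both limits. In ovaries Adgre1 was at 7.46, 10.4 and 8.30 FPKM in OC and 9.52, 14.5, 8.91 and 26.8 FPKM in OT mice. OT4 was the highest and OT1 and OT3 were within the OC range, with an estimate of 0.64 (SE 0.35, unadjusted p = 0.103 by limma).

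Cx3cr1 (chromosome 9, 119901616 to 120069879) was at 5.17, 4.85 and 5.60 FPKM in OC ovaries and 7.72, 7.27, 5.78 and 7.62 FPKM in OT ovaries. The groups did not overlap, and the estimate was 0.43 (SE 0.13, 95% interval 0.13 to 0.73, unadjusted p = 0.01 by limma). OC uteruses held 4.42, 5.01 and 4.33 FPKM and OT uteruses 7.54, 8.27, 3.35 and 8.28 FPKM. OT1, OT2 and OT4 were above the OC range and OT3 was below it, with an estimate of 0.49 (SE 0.32, unadjusted p = 0.169 by limma).

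**Figure D2:**
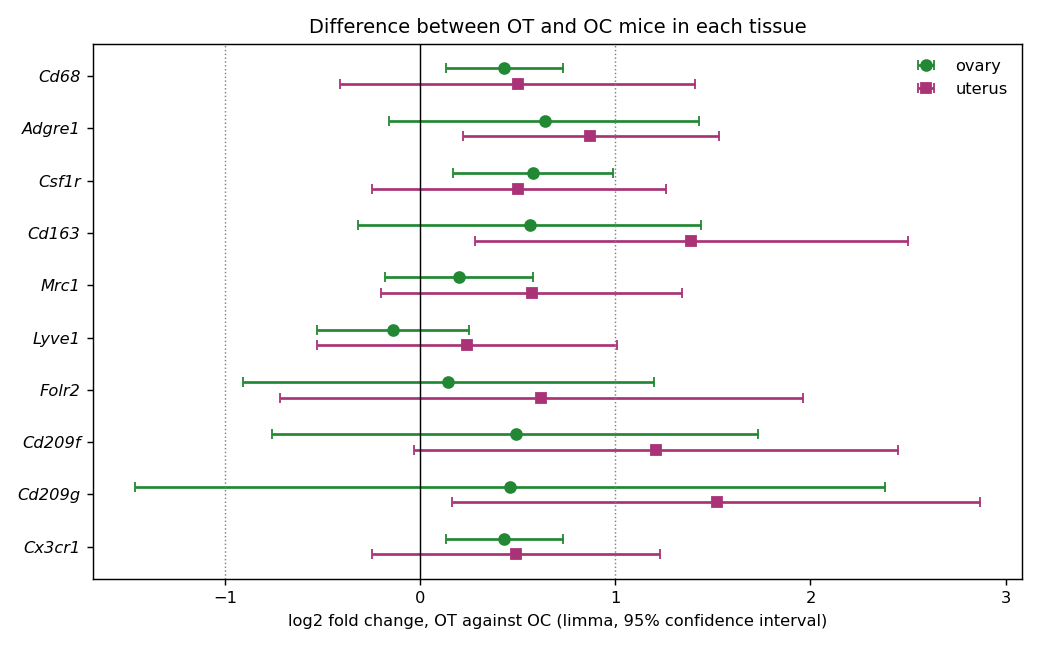
Log2 fold change of OT against OC from limma for each member in the ovary and in the uterus (points, with bars for the 95% interval), on the log2(FPKM + 0.1) scale. Cd209g (1.52) and Cd163 (1.39) lie farthest to the higher side in the uterus, and Lyve1 in the ovary (-0.14) is the estimate below 0.

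The tissues were then compared with each other in their response. The difference of the log2 fold changes, uterus less ovary, ran from -0.07 (SE 0.40) for Csf1r to 1.06 (SE 1.13, 95% interval -1.39 to 3.50) for Cd209g, and was 0.83 (SE 0.67, 95% interval -0.61 to 2.27) for Cd163. Of the 10 members, 0 were called in either direction by limma and 0 had an unadjusted p of at most 0.05, beside 1.28% of 14557 genes called higher and 0.556% called lower. Their adjusted p-values ran from 0.847 to 0.981 by limma. The intervals are wide, so that larger responses of Cd163 or Cd209g in the uterus than in the ovary were neither shown nor bounded closely. Without OT4, Cd163 was called, at 1.17 with an unadjusted p of 0.0409 by limma.

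Read by mouse, the members were high together in the uteruses of OT1 and OT2. Deviations from the OC mean of the same tissue on the log2 scale had medians over the 10 members of 1.14, 1.45, 0.08 and -0.03 in the uteruses of OT1 to OT4. Of the 10 members, 10, 9, 4 and 2 were above every OC uterus in OT1 to OT4, and 8 members in OT2 and 6 in OT1 were at least 1 log2 unit up. The shares of all genes that meet these limits in a single mouse were not counted, so the counts describe the members only. The 2 members that were high in OT4 were Adgre1 (1.15) and Cx3cr1 (0.84), while Folr2 was at -0.79 there. In OT3, Cd163 (1.56) and Cd209g (0.93) were the farthest up and Cx3cr1 (-0.44) was the farthest down.

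In the ovaries the medians were 0.59, 0.85, -0.12 and 0.44 in OT1 to OT4, and 6, 9, 3 and 6 members were above every OC ovary. OT1 and OT2 were thus less far up than in their uteruses, OT4 was up in the ovary but not in the uterus, and OT3 was below the OC mean. OT2 was the highest of the 7 libraries for 6 members in each tissue, and for Csf1r, Mrc1, Folr2 and Cd209g in both. The ovary of OT3 was below every OC ovary for 5 members, among them Cd209g (-1.94) and Cd209f (-0.84). For these counts too, the shares over all genes were not counted. Adgre1 stood out in the ovary of OT4 as in its uterus, at 1.62. The summed FPKM of the 10 members was 273, 317, 132 and 129 in OT uteruses against 122 to 127 in OC uteruses, and 94.9, 121, 71.2 and 105 in OT ovaries against 60 to 80.3 in OC ovaries.

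The members also varied more among OT than among OC mice. The coefficient of variation was larger in OT for all 10 members in the uterus, where it ran from 33.4% to 74.9% in OT and from 2.46% to 21.4% in OC, beside 76.7% of all genes tested. In the ovary it was larger in OT for 9 members, beside 59.5% of all genes. The exception was Lyve1, at 13.6% in OT and 21.2% in OC ovaries.

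**Figure D3:**
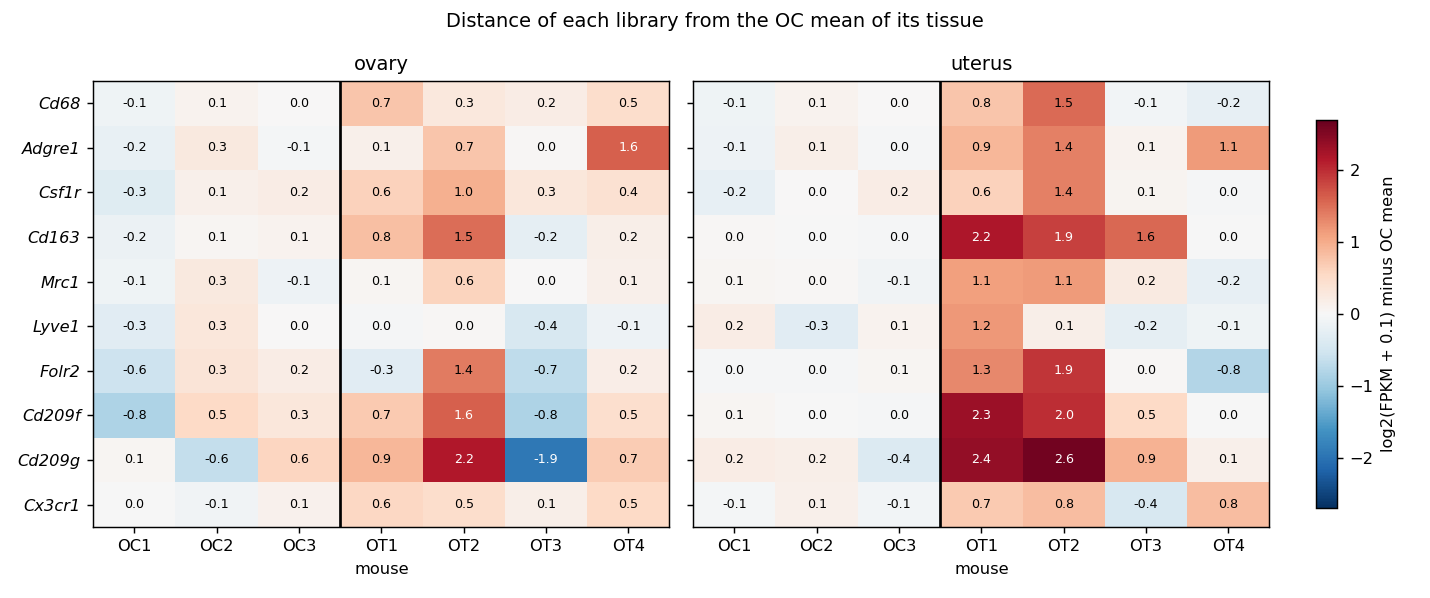
Log2 deviation of each member from the OC mean of its tissue in every library, as a colour with its value written in, mice in columns and genes in rows. In the uterus the OT1 and OT2 columns are high for nearly all members (medians 1.14 and 1.45), and the OT4 column is high for Adgre1 and Cx3cr1 alone.

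Without treatment, several members were higher in the uterus than in the ovary. In OC mice, Lyve1 was called higher in the uterus at an adjusted p under 0.05, at 21.6 ± 3.92 FPKM (SD, n = 3) against 6.47 ± 1.37 FPKM, a log2 difference of 1.73 (SE 0.30, adjusted p = 0.000724 by limma). Folr2 was called as well, at 14.5 ± 0.568 against 4.49 ± 1.37 FPKM (SD, n = 3), a difference of 1.72 (SE 0.62, adjusted p = 0.0454 by limma). That call was lost when OC1, OC2, OC3 or OT3 was left out, at adjusted p-values by limma of 0.218, 0.113, 0.154 and 0.0512. The 2 members called stood beside 8.61% of genes called higher in the uterus, and 0 were called lower beside 9.73%.

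Csf1r and Mrc1 had estimates under the fold limit, at 0.89 (SE 0.31, adjusted p = 0.0371 by limma) and 0.84 (SE 0.30, adjusted p = 0.045 by limma). Scaling to TPM, which lowered the median of all genes in this comparison from -0.01 to -0.18, gave them adjusted p-values by limma of 0.0651 and 0.0521. The estimates of Cd68 (-0.09), Cx3cr1 (-0.18) and Cd163 (0.14) were nearest to 0, and none of these was called; that of Cd163 was -0.01 with TPM. The ranges of the OC libraries did not overlap for 7 members, all higher in the uterus, beside 28.6% of genes higher and 30.4% lower. The ligand genes of Csf1r went in unlike directions. Csf1 was at 13 ± 1.87 FPKM in OC uteruses and 7.25 ± 0.612 in OC ovaries (SD, n = 3). Its difference of 0.82 (SE 0.15, adjusted p = 0.000784 by limma) was not called only because it was under the fold limit. Il34 was called lower in the uterus, at 1.14 ± 0.828 against 4.81 ± 0.37 FPKM (SD, n = 3), by 2.24 on the log2 scale. Of the 6 lymphatic endothelium markers, Prox1 (1.16), Reln (1.13) and Ccl21a (1.62) were called higher in the uterus by limma, and their part in the Lyve1 difference was not tested.

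**Figure D4:**
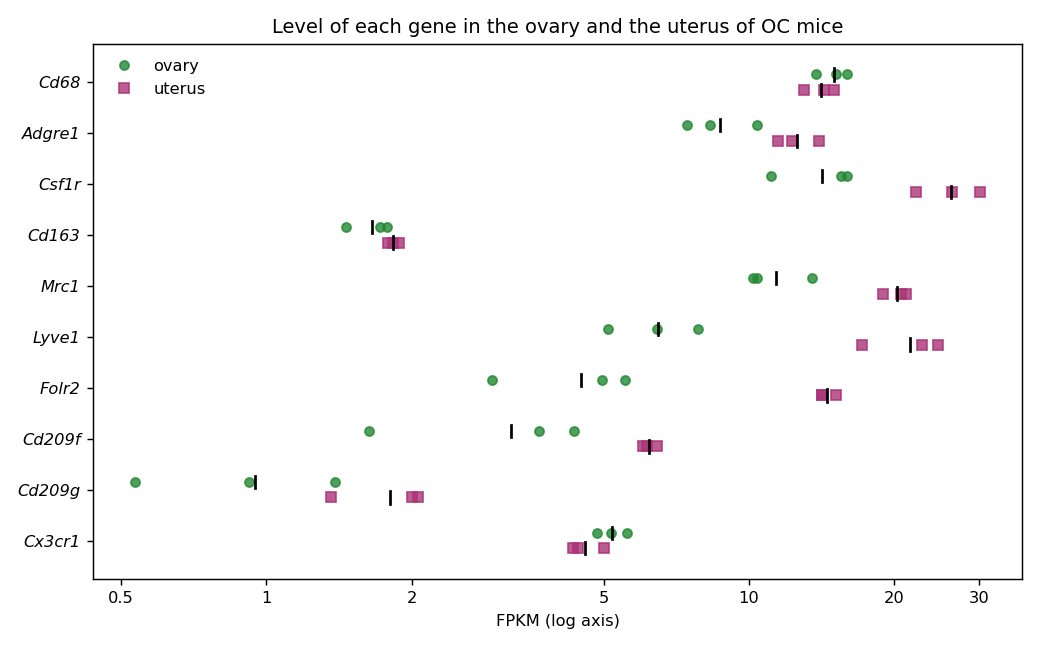
FPKM of each member in the 3 OC ovaries (circles) and 3 OC uteruses (squares) on a log axis, with a black line at the mean. Lyve1 and Folr2 show the widest gaps between the tissues, 21.6 against 6.47 FPKM and 14.5 against 4.49 FPKM.

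The order of levels differed between the organs. In OC ovaries Cd68 led at 15.0 ± 1.11 FPKM (SD, n = 3), followed by Csf1r, Mrc1, Adgre1, Lyve1, Cx3cr1, Folr2, Cd209f, Cd163 and Cd209g at 0.948 ± 0.427 FPKM. Of the neighbours in that order, the ranges over libraries were apart for Cd163 and Cd209g and overlapped for all others. In OC uteruses Csf1r led at 26.3 ± 4.03 FPKM (SD, n = 3), followed by Lyve1, Mrc1, Folr2, Cd68, Adgre1, Cd209f, Cx3cr1, Cd163 and Cd209g. There the ranges were apart between Mrc1 and Folr2, Adgre1 and Cd209f, Cd209f and Cx3cr1, and Cx3cr1 and Cd163. Among OT mice the ranges of neighbours overlapped for all members in the uterus, and in the ovary only Mrc1 and Cx3cr1 were apart.

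Variation over the 14 libraries, with each tissue centred on its mean, was positively correlated for all 45 pairs of members. Pearson's r ran from 0.23 for Adgre1 with Lyve1 to 0.91 for Mrc1 with Folr2, with a median of 0.64. It was 0.89 for Cd163 with Cd209f, 0.88 for Cd209f with Cd209g and 0.78 for Adgre1 with Cx3cr1. Transcripts of Cd209f and Cd209g share stretches, so their separate values, and the r between them, are uncertain. The points share mice, groups and the high OT1 and OT2 uteruses, so these values describe the libraries only.

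By the same measure, the genes outside the set that were most like each member were found. Csf1r was most like Cybb, Fcgr3 and Ptafr (r = 0.95 each), and Cd68 like Fcgr3 (0.95), Col6a5 (0.94) and Apoe (0.93). Fcgr3 is an activating receptor for antibodies and Cybb a subunit of the phagocyte NADPH oxidase. Adgre1 was most like Clec4a1 (0.96), Itgam (0.95) and Aif1 (0.95), and Mrc1 like B2m (0.96), Ctsh (0.96) and Bank1 (0.95). Itgam and Aif1 are themselves macrophage markers. They were picked by their likeness to Adgre1 over these libraries, so high values in the same mice follow from that choice. In ovaries, OT4 had 7.34 FPKM of Itgam against 3.09 to 4.43 in OC mice, and 12.4 FPKM of Aif1 against 4.75 to 5.14. Folr2 and Cd209f were both most like F13a1 (0.93 and 0.91), the gene of coagulation factor XIII A. The next for Folr2 were Cldn15 (0.92) and Sppl2a (0.91), and for Cd209f Jchain and Irf4 (0.91 each). Cd163 was most like Ifi27l2a (0.94), Irf4 (0.92) and Man2a2 (0.92), Cd209g like Bcl2a1d (0.91), Tmem98 (0.88) and Ttc38 (0.88), Lyve1 like Ostc (0.92), Ift20 (0.91) and Ttc30a1 (0.91), and Cx3cr1 like Ms4a4c (0.88), Irf5 (0.84) and Hk3 (0.84).

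Lists of related macrophage genes were set beside the members. Of 14 other general markers, 0 were called by limma in either tissue, with 12 estimates above 0 in each and medians of 0.42 (ovary) and 0.64 (uterus). C1qa, a complement gene made by macrophages, was at 69.5, 78.2 and 70.9 FPKM in OC uteruses and 149, 215, 75.7 and 75.6 FPKM in OT1 to OT4. It was high in the same pair of uteruses as most members, but not every marker of the list was. In the uterus of OT1, Cd14 was at 15.7 FPKM against 33.2 to 38.5 in OC. Mertk was at 7.21 FPKM there against 9.23 to 15.2, and Laptm5 at 38.7 against 44.2 to 44.5. Mertk (-0.35) and Cd14 (-0.21) had the uterine estimates below 0. Of 14 other tissue-resident genes 11 were tested, with medians of 0.13 (ovary) and 0.59 (uterus), and Fcna, a ficolin, was called higher in the uterus (1.68, unadjusted p = 0.017 by limma). Of the 3 tested Cd209 family genes outside the set, Cd209b was called higher in the uterus (2.45, unadjusted p = 0.00789 by limma), at 0.199, 0.0788 and 0.237 FPKM in OC and 3.18, 1.85, 1.38 and 0.346 FPKM in OT1 to OT4. All 4 OT uteruses were above the OC ones for Cd209b, though its OC levels were near 0 and its fold change depends on the pseudocount. Its OC mean of 0.171 FPKM was under the filter of 0.5 FPKM, so it passed through the OT values.

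Among growth factors, ligands and lineage factors, Ccl2, a chemokine that draws monocytes, was called higher in the ovary (1.27, unadjusted p = 0.000707 by limma) and 0 in the uterus, with a median of 0.33 in both. Il1b (1.49) and Tnf (1.42) of the inflammatory genes were called higher in the ovary and Cxcl9 (1.85) in the uterus. Their OC means were low, at 0.318, 0.279 and 0.473 FPKM, so they passed the filter of 0.5 FPKM through the OT values. The fold changes of these genes depend on the pseudocount, and for Il1b the ovary of OT4 was far the highest, at 2.78 FPKM. Of the alternative activation genes, Retnla (1.23) was called higher and Il1rn (-1.33) lower in the ovary, and Arg1 and Retnla higher in the uterus. Il1rn had means of 1.04 FPKM in OC and 0.393 in OT ovaries, so it passed the filter through the OC values. Arg1, an arginase, was at 1.18, 2.49 and 0.697 FPKM in OC uteruses and 5.74, 15.1, 15.7 and 10.7 FPKM in OT1 to OT4, a log2 fold change of 3.00 with an unadjusted p of 0.000213 by limma. All OT uteruses were above the OC ones, OT3 and OT4 included, unlike any of the 10 members. Retnla, a secreted resistin-like protein also made by adipose tissue, had a log2 fold change of 2.89 in the uterus (unadjusted p = 0.00672 by limma). Of the 4 monocyte markers tested, 0 were called in either tissue by limma, with medians of -0.01 and -0.08.

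Markers of other cell types moved with the treatment in the same libraries. The 10 adipocyte markers, such as Adipoq and Cfd, were all called higher in the uterus (median 3.69) and 5 of them in the ovary (median 1.63). They summed to 11797, 1312, 2395 and 1327 FPKM in the uteruses of OT1 to OT4 against 78.5 to 274 in OC, and to 1885, 1394, 273 and 491 in OT ovaries against 223 to 343 in OC. All 4 OT uteruses were above the OC range for adipocyte markers, with OT1 far the highest, and the medians of the members there were high in OT1 and OT2 and near 0 in OT3 and OT4. In the ovary, OT1, OT2 and OT4 were above the OC range for adipocyte markers and had member medians of 0.59, 0.85 and 0.44. OT3 was within that range with a median of -0.12. The order of mice was not the same, with OT1 highest for the markers and OT2 for the members. Among OC ovaries, OC2 had the lowest sum of adipocyte markers (223 FPKM) and the highest member median (0.20). Of the 7 stratified epithelium markers, 6 were called higher in the uterus (median 5.10), with sums of 238, 58.2, 780 and 387 FPKM in OT1 to OT4 against 11.8 to 21.4 in OC, so OT3 and OT4 led, in which the medians of the members were lowest. Of those called in the uterus, Krt14, Krt6a and Trp63 had OC means there of 0.421, 0.16 and 0.456 FPKM, under the filter of 0.5 FPKM. Only 2 of the 7, Sbsn and Trp63, passed the filter in the ovary, and neither was called there (median -0.17). Sbsn was the marker not called in the uterus.

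Among leukocytes, the B cell genes Cd79a (1.64), Cd79b (1.62) and Ms4a1 (2.82) were called higher in the uterus. Cd79a and Ms4a1 had OC means of 0.287 and 0.0518 FPKM there, under the filter of 0.5 FPKM. OT2 held 4.36 and 5.99 FPKM of them, against 0.422 to 0.834 in the other OT uteruses. The T and B cell list summed to 28.8 FPKM in the uterus and 23.2 in the ovary of OT2, against 2.65 to 6.92 in all other libraries, so that the mouse with the highest median of the members had the most lymphocyte transcripts too. Neutrophil markers summed to 42.5 FPKM in the uterus of OT1 and 21.5 in that of OT3, against 5.7 to 9.74 in the other uteruses, and 0 were called by limma. Retnlg alone gave 39.9 and 17.3 FPKM of these sums, and the other 7 genes summed to 2.57 in OT1 and 4.26 in OT3 against 0.418 to 3.72 in OC uteruses, with Camp and Ngp listed at 0 in every uterus. Dendritic cell (medians 0.16 for ovaries and -0.31 for uteruses), mast cell (0.10 and 0.22), blood endothelium (-0.01 and -0.26) and erythroid (0.57 and 0.79) markers had 0 called genes by limma in either tissue. Mast cell markers summed to 123 and 128 FPKM in the uteruses of OT1 and OT2, against 68.3 and 45.7 in OT3 and OT4 and 55.8 to 87.9 in OC, so they were high in the same uteruses as most members. Erythroid markers, the globin genes and Alas2, summed to 1233 FPKM in the uterus of OT1 and 445 in that of OT3 against 137 to 284 in OC uteruses, and to 695 in the ovary of OT3 against 176 to 242 in OC ovaries. The 5 mast cell markers were all called higher in the uterus than in the ovary of OC mice. Eosinophil markers, a list added after values had been seen, summed to 0.249 to 0.841 FPKM in ovaries and 1.58 to 7.31 in uteruses, with Epx listed at 0 throughout. Ccr3 was called higher in the uterus (1.73), from an OC mean of 0.429 FPKM that was also under the filter limit. The part of these cell types in the members' values was not tested.

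**Figure D5:**
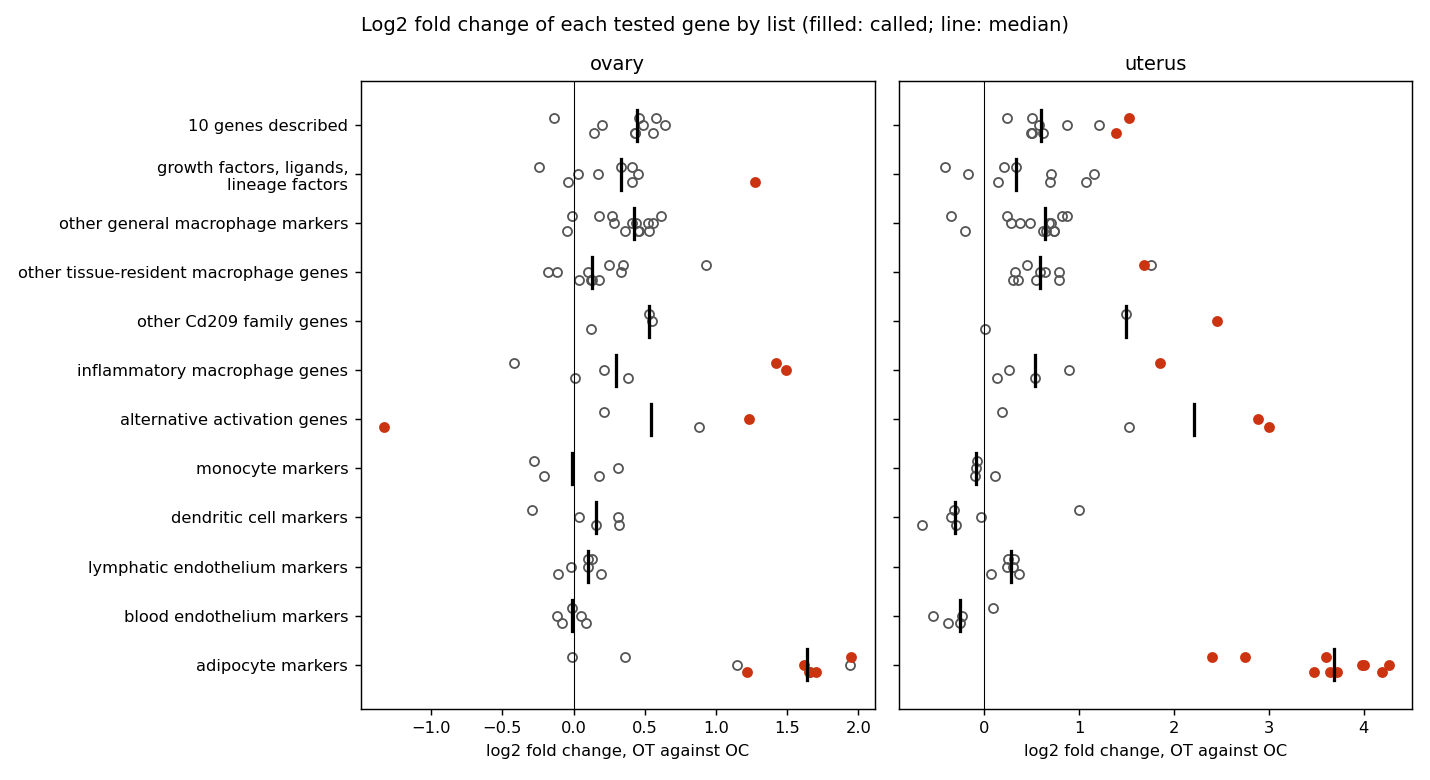
Log2 fold change of OT against OC for every tested gene of 12 lists, by tissue, on the log2(FPKM + 0.1) scale, with filled points for called genes and a black line at the median of the list. The medians of the members (0.44 and 0.59) lie near those of the other general macrophage markers (0.42 and 0.64), and adipocyte markers (3.69) lie far above them in the uterus.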

How the data were processed

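Gene-level RNA-seq values of 14 libraries (ovary and uterus of 3 OC and 4 OT mice) were grouped by their labels. The authors trimmed reads (Skewer 0.2.2), aligned them to mm10 (STAR 2.5) and deposited FPKM from Cufflinks 2.2.1. Median-of-ratios factors of 0.991 to 1.017 show that the deposited values were on a like scale. Symbols and positions came from GENCODE M21, which matched all 21853 identifiers. Reads were not used here, so depth is unknown and the Cuffdiff test of the study was not run.

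Genes averaging 0.5 FPKM or more entered limma 3.58.1 under R 4.3.3 (lmFit, eBayes with a trend) on log2(FPKM + 0.1), per tissue for OT against OC and over all 14 libraries for comparisons between tissues. The scale understates changes of low genes. Calls between tissues in OC mice needed a log2 difference of 1 or more in either direction and a Benjamini-Hochberg adjusted p under 0.05. The fit was tested on simulated data. Other steps used Python 3.11.15 with pandas 2.3.3, numpy 2.4.6 and matplotlib 3.10.9.

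OC and OT mice of the same number were different animals, while ovary and uterus libraries of the same name were taken as 1 mouse from the names. Their deviations from the group means had correlations over genes of 0.074 to 0.254, and those of other names in the same group -0.235 to 0.248, so the values alone do not settle the pairing. All members were named, the called genes of each list or its most abundant ones, and the 3 genes most like each member. The members and lists were chosen with earlier results of these data known. The study had listed several of their genes as higher in both tissues, among them Cd209g, Ccl2, Retnla, Cd79b, Adipoq and Cfd. Alternatives were other pseudocounts, filters, scalings, fits, blocks and leaving out each mouse.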

Additional observations from a re-analysis of the deposited data

Results flagged for a closer look

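Cx3cr1 in the uterus of OT3, at 3.35 FPKM, lay far below the other 3 OT uteruses (7.54 to 8.28 FPKM). The gap to the nearest of them was 0.851 of the range of the group, over Dixon's 95% critical value for 4 samples. Chance alone flags about 1 in 20 such groups.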

How the results depend on the processing

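With 3 against 4 mice, 1 mouse decides several calls. Without each mouse in turn, the members called higher in the uterus ran from 0 (without OT2) to 4 (without OT3 or OT4), in the ovary from 0 to 1, for the difference between tissues from 0 to 1 and for uterus against ovary from 1 to 2. Genes called higher and lower then ran from 36 to 104 and 10 to 33 in the ovary, from 243 to 416 and 52 to 189 in the uterus, from 139 to 274 and 57 to 112 for the difference, and from 825 to 1385 and 1149 to 1462 between tissues. Some estimates of single members changed sign. In the ovary these were Folr2 (-0.28 to 0.42, below 0 without OC1 or OT2), Cd209g (-0.11 to 1.25, below 0 without OT2) and Lyve1 (-0.30 to 0.01, above 0 without OC2), and in the uterus Lyve1 (-0.07 to 0.40, below 0 without OT1). For the difference they were Cd68 (-0.32 to 0.33, below 0 without OT2), Cx3cr1 (-0.05 to 0.27, below 0 without OC3, OT2 or OT4) and Csf1r (-0.23 to 0.05, above 0 without OT4). The cause was not tested.

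Scaling to TPM moved the median of all genes in the uterus from 0.01 to -0.13. It changed the split of higher to lower calls from 53 to 12 into 79 to 24 in the ovary, from 316 to 94 into 319 to 160 in the uterus, from 186 to 81 into 193 to 139 for the difference and from 1254 to 1417 into 1011 to 1945 between tissues. TPM also reversed Cd68 (-0.08) and Cx3cr1 (-0.10) for the difference and Cd163 (-0.01) between tissues. A pseudocount of 1 left 16 higher and 2 lower genes for ovaries, 202 and 57 for uteruses, 105 and 29 for the difference, and 1 member between tissues. No filter gave 99 and 60 in the ovary, 152 lower in the uterus, 298 and 140 for the difference, and again 1 member between tissues. A mean of at least 1 FPKM gave 35 and 7 in the ovary. All 14 libraries in 1 fit left 1 member in the uterus.

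Deviations of same-numbered OC and OT mice had correlations from -0.027 to 0.331, and those of other numbers -0.382 to 0.253. These ranges overlap and do not settle a pairing, but OC and OT mice of the same number were different animals. A replicate block on those numbers, with OT4 left out, gave 34 genes called lower in ovaries, 238 called lower in uteruses and 4 uterine members, namely Cd163 (1.86), Cd209g (1.98), Folr2 (1.09) and Cd209f (1.62). Leaving out single mice without a block gave the same largest estimates for these 4 genes, so the block itself did not raise them. The mouse as a replicate block over both tissues gave 1327 higher and 1412 lower genes between tissues and changed no call of a member. Depth is unknown, and low values such as those of Cd209g rest on few reads.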
